A study of Mus musculus with 14 samples.

Results

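Cytosolic ribosomal protein genes encode the proteins of the small (Rps) and large (Rpl) subunits of the ribosome outside mitochondria. They were taken by symbol, as every gene whose platform symbol begins with Rpl, Rps or Rplp and a digit, or is Rpsa, without the Rps6k kinases and pseudogenes, and only from probe sets that name 1 gene. Of 18193 genes with such a probe set, 50 were members, and 47 of the 12212 genes that passed a filter on dim signals (a scaled signal of at least 100 in at least 3 arrays) were members. Rpl3l, Rps16 and Rps4l did not pass: the single-gene probe set of Rps16 read at most 21 on any array, and Rpl3l and Rps4l reached 132 and 196 on their brightest arrays. Rps19bp1 meets the rule by its symbol but encodes a binding protein of Rps19 and not a subunit of the ribosome. A further 31 ribosomal protein symbols, among them Rpl3, Rpl5, Rpl10 and Rplp1, occur only on probe sets shared by several genes and were not analysed here.

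The RNA came from regulatory T cells (Treg cells, CD4 T cells marked by the transcription factor Foxp3) of knock-in mice of strain 129/SvJ (H-2b) that carry GFP behind Foxp3 and an internal ribosome entry site (Foxp3-ires-GFP). Naive cells came from resting spleens, as replicates 1 to 3, the submitters' controls for graft-versus-host disease (GVHD), and replicates 4 to 6, their controls for the tumor. GVHD-activated cells (n = 3) were sorted on day 4 from spleens of wild-type BALB/c recipients (H-2d), lethally irradiated with 900 cGy and given 2000000 purified CD4 and CD8 T cells of the knock-in mice and 2000000 wild-type 129/SvJ bone marrow cells. Tumor-activated cells (n = 5) were sorted from ascites 5 days after knock-in mice were injected intraperitoneally with 1000000 cells of P815, a DBA/2-derived mastocytoma (H-2d). All 4 groups share the Foxp3-ires-GFP allele, and no age was given. A sort purity over 95% was stated for 11 samples and not for naive replicates 1 to 3, whose attached protocol also describes another tumor model. The titles call the samples biological replicates without naming animals, so p-values measure only the spread between these samples, which may be technical.

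Each array was a 1-colour Affymetrix array of 45101 probe sets. The deposited signals averaged 1500 on GVHD-activated arrays and 500 on the others (a 2% trimmed mean), and all were rescaled to 500. GVHD-activated arrays and their controls were deposited with different scales and number formats, so that batch and group cannot be told apart in that comparison. Naive replicates 1 to 3 carry sample identifiers set apart from those of all other samples. Any batch behind this cannot be told apart from the naive set either. The only probe set of Foxp3 read between 9.0 and 108 and does not check the sort. Summed signals of 12 measured T cell markers were 121800 to 142200 in naive replicates 1 to 3, 116000 to 130500 in GVHD, 69440 to 97140 in naive replicates 4 to 6, and only 9295 to 50760 in tumor-activated cells. The tumor-activated arrays also carried 15 macrophage markers at a summed signal of 61120 to 143400 and 14 mast cell markers at 74540 to 148800, against at most 12610 and 8390 in any other array, both in naive replicate 6. One of the macrophage markers and 3 of the mast cell markers stayed under 100 on all tumor-activated arrays. Tumor-activated replicate 3 stood apart, with the fewest T cell markers, the most macrophage and mast cell markers and 37.3% of its probe sets at 100 or more, against 45.6% to 55.4% on the others.

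Ribosomal protein mRNAs are among the most abundant mRNAs of a cell, and most of their proteins are needed in equal numbers for each ribosome. Most of these mRNAs begin with a cytosine followed by a run of pyrimidines (the 5′ terminal oligopyrimidine, or TOP, motif), through which the mTOR kinase and the RNA-binding protein Larp1 set their translation. Resting lymphocytes hold many such mRNAs in store and engage them when activated, so that an mRNA level does not give the rate of protein synthesis. Some ribosomal proteins also have paralogues or roles apart from the ribosome, and these are described with their values.

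The start regions of 6 members that the results turn on are shown because these genes moved differently. Rps27l rose, Rps27 is the gene it is a paralogue of, Rps24 and Rpl37a fell in GVHD, and Rpl41 and Rps10 were among the 4 members that differed most between the naive sets. Each is the 60 bases from 40 before to 20 after the annotated start, from RefSeq on GRCm38.p6, read on the strand of the gene, with its longest unbroken run of C and T in capitals (each one, where runs tie in length).
Rps27l, chr9:66946046-66946105, plus strand: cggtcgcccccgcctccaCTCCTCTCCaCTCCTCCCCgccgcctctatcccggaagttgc
Rps27, chr3:90213629-90213688, minus strand: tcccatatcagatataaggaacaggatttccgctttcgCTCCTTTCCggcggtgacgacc
Rps24, chr14:24490638-24490697, plus strand: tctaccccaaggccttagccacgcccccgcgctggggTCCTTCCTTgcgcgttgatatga
Rpl37a, chr1:72711220-72711279, plus strand: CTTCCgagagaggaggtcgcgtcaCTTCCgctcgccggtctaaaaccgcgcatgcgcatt
Rpl41, chr10:128549149-128549208, minus strand: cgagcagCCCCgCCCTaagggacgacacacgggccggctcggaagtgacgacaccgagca
Rps10, chr17:27635225-27635284, minus strand: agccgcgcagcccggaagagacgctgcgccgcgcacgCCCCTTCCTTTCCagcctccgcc

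The run begins 3 bases before the annotated start in Rps10 and Rps24 and 2 before it in Rps27 and so spans the start. The Rps27l window holds 2 runs of 9 bases, which begin 22 and 12 bases before the start and end ahead of it. Rpl37a and Rpl41 have runs of only 5 and 4 bases, which do not reach the annotated start, so a run across the start was seen in 3 of the 6 windows shown. Rps27l and Rps24 have a second annotated start that is not shown. The longest run at the other start of Rps24 has 19 bases, begins 37 bases before that start and ends ahead of it. At the other start of Rps27l it has 5 bases, begins 25 before and also ends ahead. Whether Rps24 counts among the 3 therefore depends on the start shown. Over the 52 RefSeq windows of the 44 members with an entry, a C/T run of at least 8 bases occurred in 26, against 24.2% of all 32851 windows. In the full windows of 300 bases (250 before to 50 after the start), searched on both strands, CCGGAAG, the core bound by ETS factors, occurred in 40.4% of the members' windows and 8.9% of all. ATGGCGG, part of the YY1 motif, occurred in 13.5% and 4.1%. Each word was counted without regard to the other. A match is a description of these letters and not a binding site.

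The largest pattern among the ribosomal protein genes lay between the naive sets, which the labels describe as the same kind of cell. The signal fell in naive replicates 4 to 6 against naive replicates 1 to 3 for 29 of the 47 members (limma, Benjamini-Hochberg adjusted p under 0.05 over all genes tested), where 3.43% of all genes did, and rose for 1, where 4.43% of all genes did. The median log2 difference over the members was -1.29, with 43 below 0, against -0.07 over all genes. All arrays of replicates 4 to 6 lay below all of replicates 1 to 3 for 38 of 47 members (21.4% of all genes), and above them for 1 (18.7%). The falls took in 15 of 20 small subunit genes and 14 of 22 large subunit genes.

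**Figure D1:**
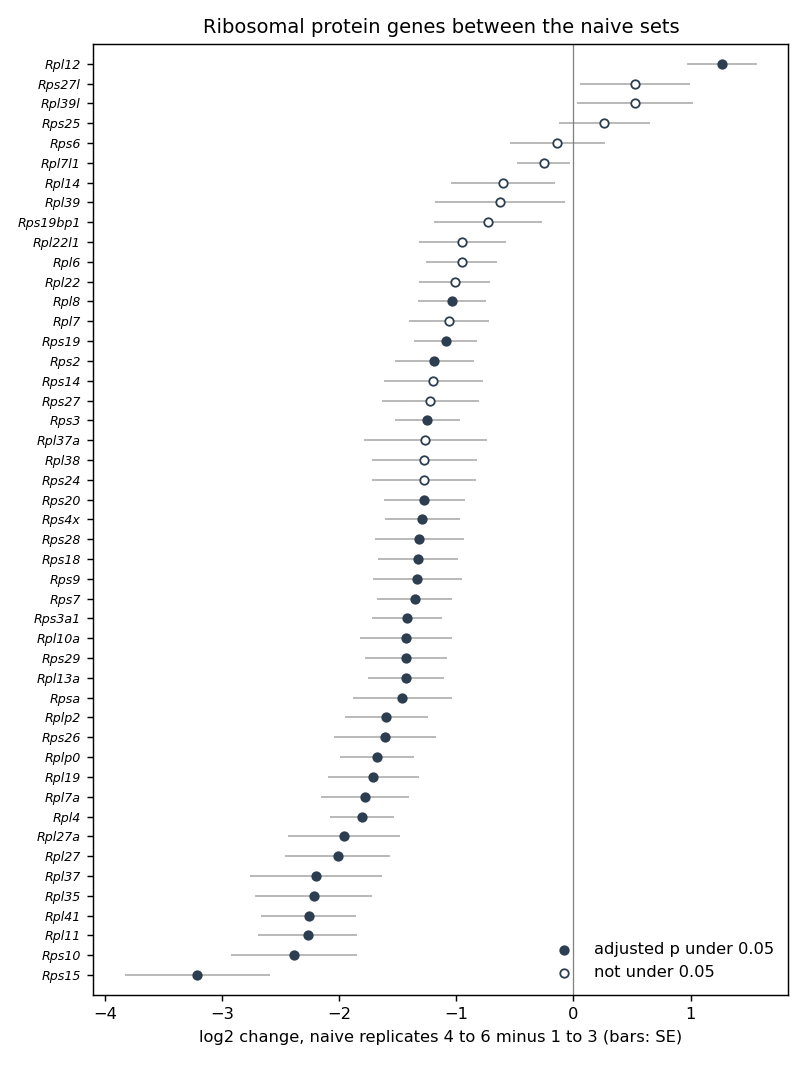
Log2 difference of each of the 47 genes, naive replicates 4 to 6 minus 1 to 3 (points, with the SE of the fit as bars), ordered by size. Filled points passed at an adjusted p under 0.05: 29 lie below 0, from Rps15 at -3.21, and only Rpl12 at 1.27 lies above it.

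Rps15, a small subunit protein near the decoding centre, showed the largest difference. Its signals were 51487, 50767 and 63110 in naive replicates 1 to 3 and 18334, 3654 and 3035 in replicates 4 to 6. Replicate 4 lay between the others of its set and replicates 1 to 3, and the sets did not overlap. The log2 difference was -3.21 ± 0.62 (SE), with limma's adjusted p = 0.0062, and a second probe set of Rps15 gave -3.13.

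Rps10, another small subunit protein, read 60731, 49251 and 72737 in replicates 1 to 3 and 27029, 8258 and 6751 in replicates 4 to 6, a log2 difference of -2.39 ± 0.54 (adjusted p = 0.015, limma). Rps10 no longer passed when naive replicate 1, 3, 5 or 6 was left out, with log2 differences of -2.38, -2.25, -2.15 and -2.01. Rpl11, which with Rpl5 and 5S rRNA can bind the p53 regulator Mdm2, read 38420, 33530 and 45831 against 14483, 6978 and 5166. Its difference of -2.27 ± 0.42 (adjusted p = 0.0052, limma) passed in each of 14 fits that left out 1 array. In each of these genes replicate 4 was the highest of its set.

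Rpl41, which encodes a very short peptide of the large subunit, read 90292, 84352 and 113210 against 37866, 18075 and 11376 (log2 difference -2.26 ± 0.41, adjusted p = 0.0043 by limma). Rpl41 rests on a probe set of the kind that can cross-hybridise (suffix _x_at). Without such probe sets its difference was 0.20, from a dimmer one. Of the 47 probe sets used, 16 were of the kinds _x_at and _s_at, those of Rps10, Rps24, Rpl37a, Rpl13a and Rpl22 among them.

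Rplp0, the core of the stalk that recruits translation factors, read 59976, 51269 and 62520 against 26798, 16228 and 13496 (log2 difference -1.68 ± 0.32, adjusted p = 0.0056 by limma). Rplp2, a stalk protein that pairs with Rplp1, averaged 101620 ± 16784 (SD, n = 3) against 35465 ± 16070 (n = 3), a difference of -1.60. Both measured stalk genes fell in this fit. Quantile normalization gave -0.71 for Rplp0 and -0.28 for Rplp2, and centring on the members' median -0.19 and -0.11, and none of these passed (adjusted p = 0.051, 0.36, 0.36 and 0.55, limma). Centring takes out by construction any change the members share, so it shows only how a gene differs from the other members. Rplp2 was also lost when naive replicate 3, 5 or 6 was left out, with adjusted p up to 0.073.

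Genes known for other roles lay in the same range. Rpsa, a small subunit protein also described as a laminin receptor, averaged 102400 ± 11347 and 40175 ± 20679 (log2 difference -1.46, adjusted p = 0.044 by limma), and passed in only 4 of the 14 fits without 1 array. Rpl13a, a large subunit protein that can silence interferon-induced mRNAs, averaged 124880 ± 15257 and 47289 ± 13971 (-1.43). Rps3, which also takes part in DNA repair, differed by -1.25 by its brighter probe set. The dimmer probe set of Rps3 gave 0.79, and the mean over its probe sets -0.23 (adjusted p = 0.59, limma). Rps4x, encoded on the X chromosome, differed by -1.29, and Rps19, the gene most often mutated in Diamond-Blackfan anaemia, by -1.09. Rpl13a, Rps3, Rps4x and Rps19 passed in 11, 10, 10 and 9 of the 14 fits without 1 array. Rpsa, Rpl13a, Rps3, Rps4x and Rps19 all lay above 0 once each array was centred on the members' median, at 0.03, 0.06, 0.24, 0.20 and 0.40, and none of these passed. The shared fall is removed there by construction, so these values only place each gene among the other members. Quantile normalization put Rps3 at 0.07 and Rps4x at 0.02.

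Rpl12, at the base of the stalk, was the only member that passed with a rise, of 4 members above 0. Its probe set is dim for a ribosomal protein, with a mean signal of 1365 over all arrays. It read 961, 885 and 1232 in replicates 1 to 3 and 2132, 2717 and 2679 in replicates 4 to 6, with no overlap and a log2 difference of 1.27 ± 0.30 (adjusted p = 0.017, limma). It was lost without naive replicate 1, 2, 5 or 6, at 1.23, 1.17, 1.21 and 1.22.

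Several measures moved with this difference, and their part in it was not tested. Of 9 B cell markers 3 rose between the naive sets and 0 fell (limma; median log2 difference 1.15), with Ms4a1 and Cr2 leading, although their summed signal overlapped, at 13990 to 23830 in replicates 1 to 3 and 10380 to 26410 in replicates 4 to 6. Of 15 macrophage markers 2 rose, Lyz1 and Lyz2, and of 12 T cell markers 1 fell, Lat. Over all genes 4.43% rose and 3.43% fell between these sets. The median member signal was 56436, 50767 and 63110 in naive replicates 1 to 3 and 32865, 17422 and 14221 in replicates 4 to 6, while the brightest probe set of an array read 131990 to 171330 in the first and 46431 to 78177 in the second. The members lie at the top of that range: the 35 with a mean signal of 5000 or more had a median difference of -1.36 and gave 27 of the 29 falls, and the 12 dimmer members had a median of -0.43. The 28 other genes at least as bright as the median member had a median of -0.71, and 8 of them fell. The 3′ to 5′ signal ratio of the Gapdh control probes, which rises where RNA is degraded, lay between 4.27 and 5.11 in the first set and read 19.1, 9 and 7.45 in the second. The same ratio of the actin control probes read 2.05, 1.89 and 2.38 in the first set and 3.04, 1.99 and 2.11 in the second. By actin, only replicate 4 of the second set lay above the first set. After quantile normalization, which gives all arrays the same distribution, the median was -0.28 and 9 members fell, where 4.26% of all genes did. With each array centred on the members' own median, 5 remained lower than the other members (Rps15 at -1.72, Rps10 at -0.90, Rpl11 at -0.78, Rpl41 at -0.77 and Rpl35 at -0.73) and 8 were higher. On that centred scale 0.09% of all genes were lower and 58.3% were higher. The count of falls was 11, 16, 8, 5 and 5 without naive replicate 1, 2, 3, 5 and 6, fits with fewer arrays. It was 36 without tumor-activated replicate 3, an array outside this comparison. With each array left out in turn the median ran from -1.59 to -1.13. Shares over all genes are not given for these fits, so the counts are not read as a result about the members.

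**Figure D2:**
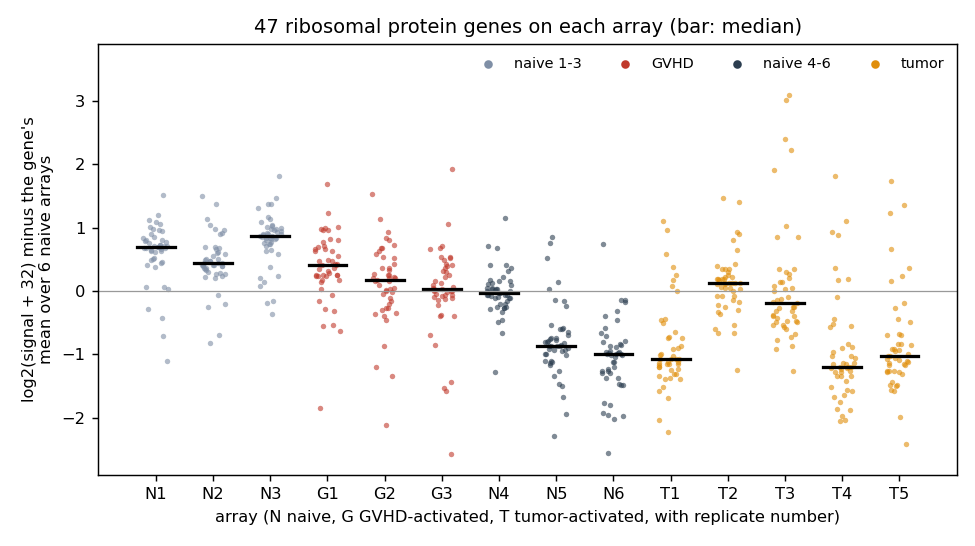
Each point is 1 of the 47 genes on 1 array, as log2(signal + 32) minus the gene's mean over the 6 naive arrays, with a bar at the array's median. The medians run from 0.44 to 0.87 in naive replicates 1 to 3, from 0.03 to 0.41 in GVHD, from -0.99 to -0.04 in naive replicates 4 to 6, and from -1.20 to 0.12 in the tumor-activated arrays.

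Replicates of 1 group differed as a block too, as the plot of the genes on each array shows. Naive replicate 4 was the highest of its set in 42 of 47 members and replicate 6 the lowest in 40. Among tumor-activated arrays, whose median member signals were 16632, 33531, 30227, 15875 and 16384 in replicates 1 to 5, replicate 2 was the highest in 31 members and replicate 3 in 15. Naive replicate 4 and tumor-activated replicate 2 also had the highest Gapdh ratios of all arrays, 19.1 and 19.9, whereas the other tumor-activated arrays read 2.19 to 2.64. The part of this measure in the members' signals was not tested.

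In GVHD-activated cells most ribosomal protein genes read somewhat below their own naive controls, and few passed the test. The median log2 change was -0.46, with quartiles of -0.67 and -0.21 and with 41 of 47 below 0, against -0.11 over all genes. A total of 3 members fell, Rpl37a, Rps24 and Rpl12, where 12.5% of all genes did, and 1 rose, Rps27l, where 9.83% did. Both counts were below the share over all genes in this fit. The falls numbered 17 in a fit to the 2 groups alone and 18 with array weights, where 21.2% and 22.8% of all genes fell. All GVHD-activated arrays lay below all naive controls for 23 members (27.9% of all genes) and above them for 1 (20.8%). The median member signals were 46794, 34601 and 34195 in GVHD replicates 1 to 3. The sign of the median depended on the controls: it was 0.83 against naive replicates 4 to 6, where 18 members rose and 1 fell. Of all genes 15.4% rose and 17.8% fell against those controls.

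**Figure D3:**
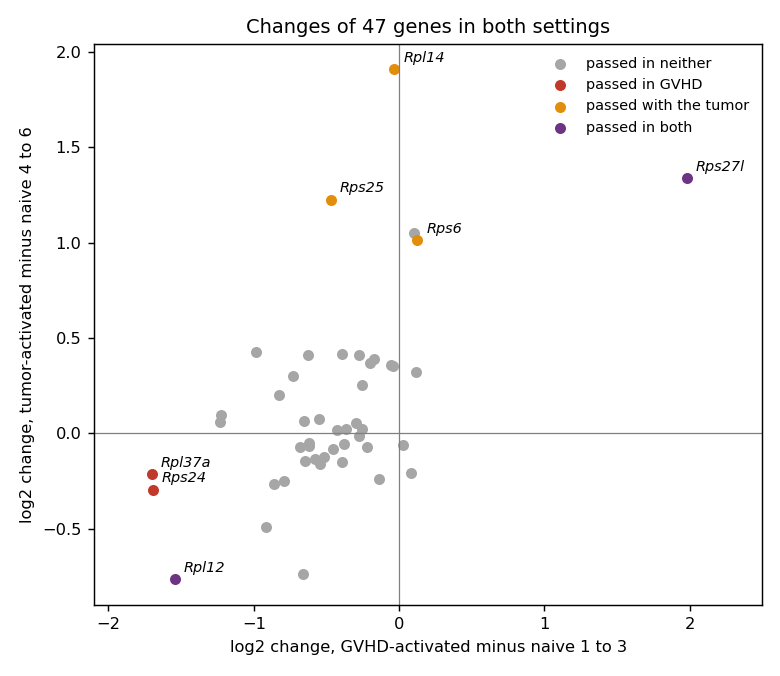
Log2 change of each of the 47 genes in GVHD-activated cells (horizontal) and in tumor-activated cells (vertical), each against its own naive controls, with the genes that passed in either one named. Most points lie left of 0 and close to 0 vertically, Rps27l stands alone at 1.98 and 1.34, and Rpl12 lies below 0 on both axes.

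Rps27l rose, and no other member did. It encodes a paralogue of the small subunit protein Rps27 and is known as a target of p53. Its signals were 1003, 1171 and 1224 in naive replicates 1 to 3 and 4476, 4004 and 5242 in GVHD, so that the groups lay far apart. The log2 change was 1.98 ± 0.47 (SE; adjusted p = 0.0059, limma), all 3 of its probe sets rose (1.84, 1.98 and 2.40), and the change passed in each of 14 fits without 1 array. With arrays centred on the members' median the change was 2.55 (adjusted p = 0.00043, limma). Rps27, whose start sequence is shown above beside that of Rps27l, read 512, 434 and 585 in the controls and 251, 296 and 390 in GVHD, with no overlap, and did not pass. The Rps27 probe set is dim for a ribosomal protein, with a mean signal of 265 over all arrays. Its signals therefore do not show whether Rps27 or Rps27l is the more abundant.

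Rps24, a small subunit protein, fell by 1.70 ± 0.44 on the log2 scale (adjusted p = 0.011, limma). It read 39022, 30623 and 42849 in the controls and 16450, 10354 and 8799 in GVHD, so that each activated array lay well below each control. Of its 6 probe sets 5 fell, from -1.11 to -1.70, and the dimmest gave 0.14. Without GVHD replicate 3 the change was -1.51 and no longer passed (adjusted p = 0.056).

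Rpl37a, a small zinc-binding protein of the large subunit, fell by 1.70 ± 0.53 (adjusted p = 0.028, limma). Its signals were 40600, 39580 and 51721 in the controls and 23015, 11143 and 9361 in GVHD, again with no overlap. A second probe set fell too (-1.98) and the dimmest gave -0.38. Rpl37a was lost without naive replicate 1, 2 or 3 (-1.75, -1.77 and -1.58) and without GVHD replicate 2 or 3 (-1.57 and -1.44). Both Rps24 and Rpl37a stayed below the other members when arrays were centred on the members' median, each at -1.13 (adjusted p = 0.0076 and 0.014, limma). Against naive replicates 4 to 6 their changes were -0.42 and -0.44 and did not pass.

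Rpl12 fell by 1.54 ± 0.30 (adjusted p = 0.0014, limma), from 961, 885 and 1232 to 422, 342 and 241, and passed in each of 14 fits without 1 array. Centred on the members' median, its change was -0.98 and did not pass (adjusted p = 0.23, limma). Its probe set is dim for a ribosomal protein, as are those of Rpl14, Rps25 and Rps6 below.

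Rpl22 and Rpl22l1 are paralogues, and loss of Rpl22 arrests the development of alpha-beta T cells. Rpl22 read 65137, 61725 and 89940 in the controls and 56521, 50894 and 51432 in GVHD by its brightest probe set (log2 change -0.43, not passed). The dimmest probe set of Rpl22 fell by 2.24 (adjusted p = 0.00042, limma, over 22143 probe sets), from 1060 ± 257 to 195 ± 24.2 (SD, n = 3 each), so the probe sets of Rpl22 disagree in size. With the mean over its probe sets Rpl22 fell by 1.05 in GVHD (adjusted p = 0.0092, limma). Rpl22l1 read 17494, 15443 and 22513 in the controls and 15628, 23361 and 21105 in GVHD, with overlap, and did not pass.

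Such differences within a gene were common. Of the 20 members with more than 1 probe set past the filter, 6 had probe sets of opposite sign in GVHD, and none had probe sets that passed in opposite directions. Between the naive sets 8 of these 20 had probe sets of opposite sign, and again none passed in opposite directions. A second probe set of Rps7 fell by 1.66 (adjusted p = 0.0015, limma) where the brighter one gave -0.58. The dimmest of 4 probe sets of Rpl13a rose by 1.04 (adjusted p = 0.041, limma) where the brightest gave -0.39. Over all 97 member probe sets, 4 rose and 12 fell, or 4.12% and 12.4%, against 8.69% and 11.9% of all 22143 probe sets.

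**Figure D4:**
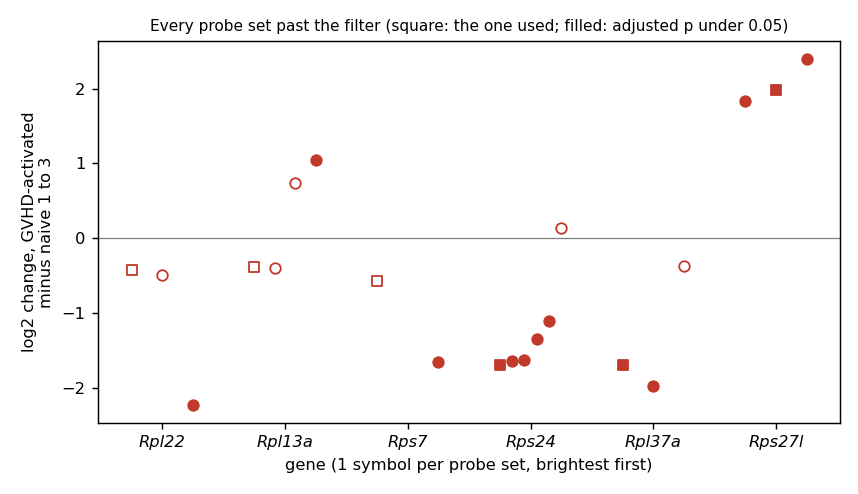
Log2 change in GVHD-activated cells against naive replicates 1 to 3 for every probe set past the filter of 6 genes. The probe set used above, of highest mean log2 signal, is a square and the others are circles, filled where the adjusted p was under 0.05. The 3 probe sets of Rps27l rose together and 5 of 6 of Rps24 fell, whereas those of Rpl22 and Rpl13a spread from -0.43 to -2.24 and from -0.40 to 1.04.

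In tumor-activated cells the ribosomal protein genes as a group lay at the level of their controls. The median log2 change was 0.02, with 25 members above 0 and 22 below, against -0.06 over all genes. A total of 4 members rose, Rpl14, Rps27l, Rps25 and Rps6, where 16.2% of all genes did, and 1 fell, Rpl12, where 15.5% did. The arrays did not overlap for 2 higher members (16.5% of all genes) and 1 lower (17.9%). All 5 that passed were among the 12 dimmer members, while the 35 brighter ones lay between -0.49 and 0.42 and none passed. Against naive replicates 1 to 3 in place of their own controls the median was -1.42, and 37 members fell, where 25.2% of all genes did. Because the ascites samples also carried macrophage and mast cell markers, fewer cells of a type and less RNA per cell cannot be told apart here, and the part of the other cells in these changes was not tested.

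Rpl14, a large subunit protein, rose most. It read 767, 380 and 359 in naive replicates 4 to 6 and 1177, 1612, 4977, 1150 and 2042 in tumor-activated replicates 1 to 5, with no overlap and with replicate 3 far above the rest. The log2 change was 1.91 ± 0.40 (adjusted p = 0.0019, limma) and passed in each of 14 fits without 1 array. With arrays centred on the members' median it was 1.82 (adjusted p = 0.0072, limma).

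Rps27l read 3081, 1388 and 1026 in the controls and 2972, 3815, 11927, 2961 and 3229 with the tumor, so that naive replicate 4 overlapped the activated arrays. Its log2 change of 1.34 ± 0.42 (adjusted p = 0.023, limma) was lost without naive replicate 5 (1.22) or 6 (1.01). With tumor-activated replicate 3 and naive replicate 6 both left out it was 0.63. All 3 of its probe sets rose, at 1.34, 1.58 and 1.66.

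Rps25, a small subunit protein needed for some viral internal ribosome entry sites, read 1557, 840 and 824 in the controls and 1411, 1658, 4492, 3372 and 2439 with the tumor, with overlap at 1 array (log2 change 1.23 ± 0.35, adjusted p = 0.014 by limma). It was lost without naive replicate 5 (1.09) or 6 (1.07). Rps6, the substrate of the S6 kinases, read 776, 572 and 611 against 893, 910, 3735, 1278 and 1091, with no overlap (1.01 ± 0.37, adjusted p = 0.045 by limma), and passed in only 3 of the 14 fits without 1 array. Both were highest in tumor-activated replicate 3, the array with the fewest T cell markers.

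Rpl12 fell from 2132, 2717 and 2679 to 1149, 1046, 2028, 1491 and 1786, with no overlap (log2 change -0.77 ± 0.27, adjusted p = 0.037 by limma). It was lost without naive replicate 5 or 6 and without tumor-activated replicate 1, 2 or 4, at -0.70, -0.71, -0.68, -0.65 and -0.77. Against naive replicates 1 to 3 the change of Rpl12 was 0.50, the opposite sign.

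**Figure D5:**
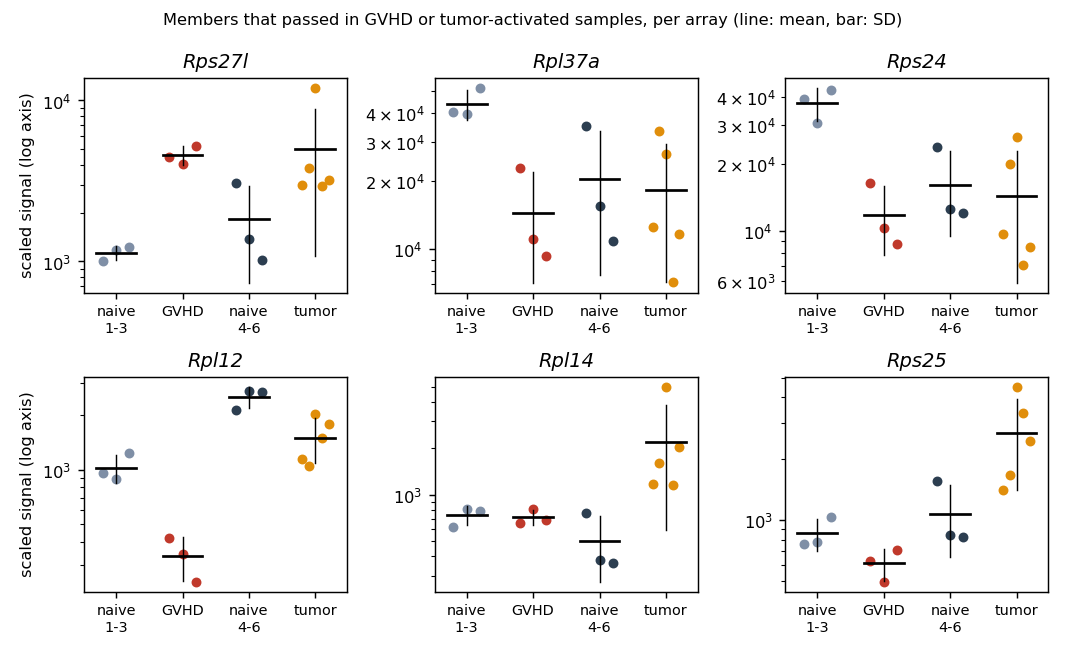
Scaled signal on every array (points, log axis) of 6 of the 7 genes that passed in GVHD-activated or tumor-activated cells, with the mean as a line and the SD as a bar, over 3, 3, 3 and 5 arrays. Rps27l is higher in both activated groups than in its controls, Rpl37a and Rps24 are lower in GVHD, Rpl12 is lower in both, and Rpl14 and Rps25 are highest with the tumor.

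By the probe sets used, the remaining members that were followed by name showed no change that passed with the tumor. Rpl22 read 51003, 29625 and 28987 in naive replicates 4 to 6 and 30431, 54576, 45606, 27044 and 28090 with the tumor, overlapping widely. Rpl22l1 read 12788, 9083 and 7244 and then 9217, 10709, 26727, 8985 and 9660, with only replicate 3 far above its controls. Rpl39, a protein at the exit tunnel of the large subunit, was dim on these arrays, between 16 and 342. Its paralogue Rpl39l lay under 100 in all GVHD-activated arrays.

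Setting the change with the tumor against the change in GVHD, the median difference over the members was 0.55 (tumor minus GVHD), with 42 of 47 above 0, against 0.01 over all genes. Its sign depended on the controls and the scaling: it was -2.25 with the naive sets exchanged (36 members lower), -0.90 against all 6 naive arrays (24 lower), -1.03 on deposited values without rescaling (20 lower) and -0.10 with arrays centred on the members' median. Of all genes, 19.7% were lower with the naive sets exchanged, 18.6% against all 6 naive arrays and 59.1% on deposited values. Only 2 members passed higher, Rpl14 by 1.94 ± 0.59 (adjusted p = 0.046, limma) and Rps25 by 1.70 ± 0.52 (adjusted p = 0.047, limma), where 7.39% of all genes did. None passed lower (limma; 0 also at an unadjusted p under 0.05), where 3.39% of all genes did. Rpl22, by the mean over its probe sets, also differed, by 1.41 (adjusted p = 0.017, limma), and its dimmest probe set by 2.61 (adjusted p = 0.0033, limma, over all probe sets), whereas the probe set used gave 0.45 and did not pass. Rpl14 and Rps25 were lost in 9 and 10 of the 14 fits without 1 array, with adjusted p up to 0.12 and 0.13. The rise of Rps27l was not shown to differ between the settings (-0.64 ± 0.63, adjusted p = 0.60, limma). Rps24 and Rpl37a fell in GVHD and did not pass with the tumor, and their differences between the settings, 1.40 and 1.49, did not pass (adjusted p = 0.16 and 0.22, limma).

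Genes that work with the ribosomal proteins were read from lists. Of 20 other genes with TOP mRNAs (elongation factors and the like), 2 rose and 2 fell in GVHD (median -0.30), and 3 rose and 0 fell with the tumor (median 0.15). Except for the absence of falls with the tumor, these counts are near the shares of all genes that rose and fell (9.83% and 12.5% in GVHD, 16.2% and 15.5% with the tumor). Gas5, a TOP RNA that hosts small nucleolar RNAs, fell by 1.71 ± 0.41 in GVHD (adjusted p = 0.0063, limma) and rose by 2.39 ± 0.37 with the tumor (adjusted p = 0.00016, limma), and these changes differed by 4.10 (adjusted p = 0.00022, limma). Npm1, the nucleolar protein nucleophosmin, fell by 0.76 in GVHD (adjusted p = 0.0499, limma) and rose by 0.89 with the tumor (adjusted p = 0.0095, limma). Nap1l1, a nucleosome assembly protein, and Eif3l, a subunit of initiation factor eIF3, rose in GVHD by 1.00 and 0.79. Between the naive sets 5 of the 20 fell, led by Fau, whose product is processed to the ribosomal protein eS30, at -2.68 ± 0.39 (adjusted p = 0.00091, limma), and by Tpt1, one of the most abundant TOP mRNAs, at -1.48. Of all genes 3.43% fell between the naive sets.

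Many factors that assemble ribosomes rose with the tumor. Of 36 ribosome biogenesis genes 15 rose and 0 fell (median 0.61; limma, with the shares over all genes as above), led by Wdr12, an assembly factor of the large subunit, at 2.18 ± 0.43 (adjusted p = 0.0014), and Nop58, a core protein of box C/D small nucleolar particles, at 1.73 ± 0.37. In GVHD 1 rose, the small subunit factor Bysl at 1.58, and 3 fell (median -0.14), with Myc, the transcription factor that drives many of these genes, at -1.88 and Utp20 at -1.07. Mitochondrial ribosomal protein genes, all 76 of which passed the filter, gave 22 rises and 0 falls with the tumor (median 0.50) and 8 rises and 1 fall in GVHD (median 0.26). Of 25 initiation factor genes 10 rose with the tumor and 0 fell (median 0.40), with the eIF2B subunits Eif2b3 and Eif2b1 at 1.66 and 1.56. In GVHD 4 rose, led by Eif1ax at 1.51 and Eif4h at 0.84, and Eif5 fell by 1.22 (median 0.39). These lists were read on the same mixed ascites samples, and the part of their macrophage and mast cell markers was not tested.

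Of 16 genes of the mTOR and S6 kinase pathway, 2 rose and 1 fell with the tumor, and 1 rose and 2 fell in GVHD (medians -0.15 and 0.03). These counts are at or below the same shares over all genes. Eif4ebp1, which holds back cap-dependent initiation until mTOR phosphorylates it, rose by 3.33 ± 0.41 with the tumor (adjusted p = 2.3e-05, limma), and Larp1 rose by 0.90. Akt1, a kinase upstream of mTOR, rose by 1.63 in GVHD, and Tsc1, an inhibitor of mTOR, fell by 1.56 there. Pdcd4, an inhibitor of the helicase eIF4A that is destroyed after S6 kinase phosphorylates it, fell in both, by 2.51 ± 0.46 in GVHD (adjusted p = 0.0010, limma) and by 1.65 ± 0.41 with the tumor (adjusted p = 0.0069, limma).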

How the data were processed

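RNA was extracted with Trizol and labelled with biotin, per the labels' protocols. The authors computed the deposited intensity of each probe set, on a linear scale, with MAS5, per the submitters' processing notes; its version and the array's genome build are not given in the sources used here. All 14 arrays were rescaled to a 2% trimmed mean of 500, log2 was taken after adding 32, and a fold change is on that scale, which understates changes of dim genes. Symbols came from the platform annotation, and a gene's probe set of highest mean log2 signal was used. Tests were limma 3.58.1 (lmFit, eBayes with trend, R 4.3.3) on a means model of 4 groups over 14 arrays, Benjamini-Hochberg adjusted over 12212 genes, checked on simulated data. The number of arrays limits the precision. Named members were, in each contrast, the 4 largest rises and 4 largest falls among members that passed with no overlap between arrays, and a set list of well-known ones; of each pathway list, the 2 largest rises and falls in each activated group. Rps25 and Rps27l with the tumor, Rps27, Rps7, Rpl39l, Rpl35 and the members outside the filter were named after their values were seen. The members and lists were chosen with earlier results of these data known. Alternatives covered the offset, filter, probe set choice, scaling, controls, array weights, pairing and left-out arrays; 2 were added after seeing the data: centring on the members' median, and leaving out naive replicate 4 with tumor-activated replicate 2.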

Additional observations from a re-analysis of the deposited data

Results flagged for a closer look

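In the tumor-activated group (n = 5) a single array stood far above the rest for 3 of the named members, each time replicate 3, the array with the fewest T cell markers. The gap to the next array, as a share of the group's range on the log2 scale, was 0.839 for Rpl22l1 (a signal of 26727 against 10709), 0.819 for Rps27l (11927 against 3815) and 0.752 for Rps6 (3735 against 1278). Chance flags about 1 in 20 such groups.

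The change with the tumor exceeded the change in GVHD for Rpl14, by 1.94 on the log2 scale, and for Rps25, by 1.70, each by the interaction test of limma (adjusted p = 0.046 and 0.047).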

How the results depend on the processing

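The median over the members has no test. Of its 69 values under settings other than a single left-out array, 53 moved by less than the spread between arrays. Against the main median of -0.46 in GVHD, the deposited values without rescaling gave 1.13, quantile normalization -0.23, scaling to the same median -0.19, the other naive set 0.83, all 6 naive arrays 0.19 and centring on the members' median 0.11. The tumor median of 0.02 became -1.42 with the other naive set and -0.69 with all 6. The difference of 0.55 became -1.03 (deposited values), -2.25 (other naive set), -0.90 (all 6) and -0.10 (centred). The naive median of -1.29 became -0.28 (quantile) and 0.20 (centred). For these the cause was not tested, beyond what each setting changes by construction.

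Counts moved as follows. The rise in GVHD (1) became 33 on deposited values, 18 with the other naive set and 3 with all 6. Over all genes 65.4%, 15.4% and 13.8% rose in these settings, in that order. The falls in GVHD (3) became 5 with the mean over probe sets, 0 on deposited values, 1 with the same median, 17 in a fit to the 2 groups alone, 18 with array weights, 1 with the other naive set and 8 without naive replicate 4 and tumor-activated replicate 2. The shares of all genes that fell were 12.8%, 1.97%, 8.29%, 21.2%, 22.8%, 17.8% and 13.5%, in that order. The tumor rises (4) became 1 (2 groups alone), 7 (array weights), 2 (centred) and 2 (without tumor-activated replicate 3 and naive replicate 6). Of all genes 12.7%, 28.9%, 7.51% and 16.6% rose there, in that order. The tumor fall (1) became 0 without the filter, with the same median, in the 2 groups alone and when centred, 2 (quantile), 5 (weights), 37 (other naive set) and 23 (all 6). In that order, 9.14%, 12.4%, 9.83%, 5.99%, 14.3%, 29.4%, 25.2% and 24.1% of all genes fell. The differences higher (2) became 0 with an offset of 1, without the filter, on deposited values, with the same median, without a trend and when centred, 1 (quantile, and without tumor-activated replicate 3 and naive replicate 6), 4 (without _x_at and _s_at probe sets, and with all 6) and 14 (weights). The shares over all genes were 6.08%, 4.46%, 2.96%, 6.64%, 7.35%, 1.08%, 7.46%, 10.9%, 7.34%, 20.2% and 19%, in that order. The differences lower (0) became 20 (deposited), 1 (weights, and without tumor-activated replicate 3 and naive replicate 6), 36 (other naive set) and 24 (all 6). Here 59.1%, 12.8%, 6.14%, 19.7% and 18.6% of all genes were lower, in that order. Between the naive sets the rise (1) became 2 without tumor-activated replicate 3 and naive replicate 6 and 8 when centred, and the 29 falls became 9 (quantile), 11 (same median) and 5 (centred). The shares over all genes were 7.77% and 58.3% for these rises and 4.26%, 1.18% and 0.09% for these falls.

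With each array left out in turn, the counts ranged from 1 to 4 for falls in GVHD, 1 to 5 for tumor rises, 0 to 1 for tumor falls, 0 to 2 for differences higher, 0 to 1 for naive rises and 5 to 36 for naive falls. Shares over all genes are not given for these fits. The ranges therefore do not show whether the members moved apart from other genes. The median ran from -0.53 to -0.33, -0.19 to 0.26, 0.31 to 0.72 and -1.59 to -1.13 in the GVHD, tumor, difference and naive comparisons.

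Replicate numbers did not pair the samples: the correlations of same-numbered deviations were 0.06, 0.10 and -0.06 in GVHD and -0.50 and 0.06 with the tumor. With the replicate block, tumor rises, tumor falls, differences higher, naive rises and naive falls were all 0. The shares over all genes were 8.23%, 3.68%, 5.09%, 0.106% and 0.0491%, in that order. The naive sets share no replicate number, so the block leaves little to compare them by, for any gene. The medians of the difference and the naive comparison were -0.10 and -0.43.

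Signs of single genes turned in 18 cases. On deposited values Rpl14, Rpl22 and Rps25 in GVHD were 1.51, 1.15 and 1.06, and the differences of Rpl22 and Rpl22l1 were -1.14 and -1.38. With the other naive set, Rpl12 and Rpl22 with the tumor were 0.50 and -1, and the differences of Rpl22 and Rpl22l1 -1.58 and -1.69. Between the naive sets, Rps3 and Rps4x were 0.07 and 0.02 (quantile), Rpl41 was 0.20 (without _x_at and _s_at), and Rpl13a, Rpl22, Rps19, Rps3, Rps4x and Rpsa were 0.06, 0.47, 0.40, 0.24, 0.20 and 0.03 (centred).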
